A study of Mus musculus with 2 samples.

Results

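The 8 genes described here encode the membrane skeleton of the red blood cell and the membrane proteins that anchor it: Sptb, Ank1, Epb41, Epb42, Slc4a1, Gypc, Rhag and Dmtn. They were chosen by name for this role, with earlier results of these data known. All 8 were found among the 21938 protein-coding genes of the annotation. Each was followed over its gene body plus 50 kb on each side, 1390 kb in all. Open chromatin was mapped by DNase-seq, in which the nuclease DNase I cuts accessible DNA and the cut ends are sequenced. The tissue was liver from B6NCrl mouse embryos at embryonic day 11.5, pooled over males and females, with no treatment named. There were 2 libraries, technical replicates 7 and 1 of 1 biological replicate, so no value has a biological error and no difference between conditions could be tested. Sequencing instruments are recorded for technical replicate 7 but not for the other library.

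The membrane skeleton is a lattice of spectrin and short actin filaments beneath the lipid bilayer. Ankyrin ties spectrin to the anion exchanger band 3, and protein 4.1 ties the spectrin and actin junctions to glycophorin C. Inherited faults in these proteins are a known cause of spherical or elliptical, fragile red cells. The embryonic liver is a main site of red cell formation, and it also holds hepatoblasts, the precursors of hepatocytes.

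Technical replicate 7 had 86036 listed peaks and technical replicate 1 had 42422, and peaks that overlapped by at least 1 bp were joined into 34023 shared regions. The number of reads is not given in the sources used here. Peak height is the deposited maximum density of cuts, and its rank percentile is the percentage position among all peaks of the same library. Among cell type markers, 6 of 7 erythroid genes had a shared start peak, its midpoint less than 1 kb away (Alas2 had none in either library). Of hepatoblast markers 2 of 6 had one, and 5 of 6 had a start peak in technical replicate 7. The other markers with a shared start peak were 0 of 3 for macrophages, 2 of 3 for endothelium, 3 of 3 for mesenchyme and 2 of 3 for neurons. Neurons were included as a tissue not expected here. Since 59.0% of all protein-coding genes had a shared start peak, these counts do not show which cell types were present. The albumin gene Alb had no start peak in either library. In bulk tissue, openness in fewer cells and weaker openness in each cell cannot be told apart.

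All 8 genes had a peak at a start in technical replicate 7, and 6 of the 8 had one in both libraries. A peak counted as a promoter peak when its midpoint lay within 1 kb of an annotated transcript start. Over all protein-coding genes 65.0% had such a peak in technical replicate 7, 59.6% in technical replicate 1 and 59.0% in both. The 6 genes were Sptb, Ank1, Epb41, Epb42, Gypc and Dmtn, and the same number of members was found in technical replicate 1 alone. Slc4a1 and Rhag had their start peak in technical replicate 7 only. The strongest shared promoter peak of the 6 genes had a median rank percentile of 77.7, averaged over the libraries, against 87.6 over the 12944 protein-coding genes with a shared promoter peak.

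A pattern seen in every window was a composite of a partial E-box and a GATA site, the letters CTG, then 7 to 9 free bases, then GATAA. This arrangement is known as a binding site of complexes that hold GATA1 and TAL1 in red cell precursors. The composite was found in all 8 windows, and of the 14 matches in peaks of technical replicate 7, 11 are shown. Those not shown are the match in an intron of Gypc and 2 in the Sptb window. These 2 lie in a peak over exon sequence inside the neighbour Plekhg3. It was not alone in this, since the plain GATA and KLF motifs described below were also in peaks of that library in all 8 windows. For these plain motifs no share over all protein-coding gene windows is given here, so that count is a description only. CTG and GATAA are in capitals, and each line reads 5′ to 3′ on the strand given. Coordinates are on GRCm38 (mm10), from RefSeq's GRCm38 sequence.
Sptb intron, chr12:76670767-76670795, minus strand: ctctggCTGcttccagatGATAAaatttg
Sptb intron, chr12:76673897-76673925, minus strand: ccagttCTGctgtgtctaGATAAtggaga
Ank1 intron, chr8:23054198-23054226, minus strand: aggactCTGggcaccattGATAAgggcgt
Epb41 intron, chr4:132040429-132040456, plus strand: tcacatCTGcttcaaaaGATAAaagcaa
Epb41 upstream, chr4:132076914-132076942, plus strand: cggcgcCTGgccctgcctGATAAgcctgt
Epb41 upstream, chr4:132077511-132077539, plus strand: tggggcCTGtgggcaactGATAAactggg
Epb42 start, chr2:121037081-121037109, plus strand: aaccatCTGtttgaacgaGATAAggaaat
Slc4a1 intron, chr11:102363740-102363768, plus strand: cccactCTGcctggacctGATAAgagcct
Rhag upstream, chr17:40806789-40806817, minus strand: ttcaagCTGcttttcaaaGATAAgggtgg
Rhag start, chr17:40811112-40811140, minus strand: cacaggCTGtatagtgttGATAAgagcag
Dmtn intron, chr14:70624020-70624047, minus strand: gcctggCTGgtggctcaGATAAggctgg

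Each of the 8 windows held at least 1 peak of technical replicate 7 with this composite, 13 peaks with 14 matches in all. Over all protein-coding genes, 30.1% of windows of the same construction held such a peak. Per megabase of window the 8 genes had 9.35 such peaks, against 2.84 over all protein-coding genes. Of the 13 peaks 6 were shared: those upstream of Epb41, at the start of Epb42 and in introns of Slc4a1, Gypc and Dmtn. Of the 138 peaks of technical replicate 7 in the 8 windows 9.42% held the composite (exact 95% interval 5.11 to 15.6), against 4.91% of all its peaks. Among distal peaks, those more than 1 kb from every start of any gene, 11 of 70 held it (15.7%; 8.11 to 26.4), against 6.93% of all distal peaks of that library. These intervals cover counting error only. The free stretch was 9 bases long in 11 of the 14 matches and 8 in the other 3, and none had 7, against 47.8%, 32.8% and 19.4% of the 4431 matches in all peaks of technical replicate 7.

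A footprint is a short stretch within an open site that was cut less than its surroundings. The longer footprint list of technical replicate 7 overlapped the composite in 10 of the 13 peaks (76.9%; 46.2 to 95.0), against 40.9% of the 4227 composite peaks of the whole library. The shorter list did so in 4 of the 13, against 16.1%. Those 4 lay in introns of Ank1 and Gypc and upstream of Epb41 and Rhag. In technical replicate 1, whose footprints come from another processing, 3 of the 13 had one (23.1%; 5.04 to 53.8), against 11.3% of the 4227. These were both sites upstream of Epb41 and the Slc4a1 intron. Over all 138 peaks, and with the shorter list of technical replicate 7, 79 held a footprint anywhere (57.2%), against 58.2% of all its peaks. This share is not one for the 13 composite peaks or the longer list. The 4227 peaks were not matched to the 13 for peak height.

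**Figure D1:**
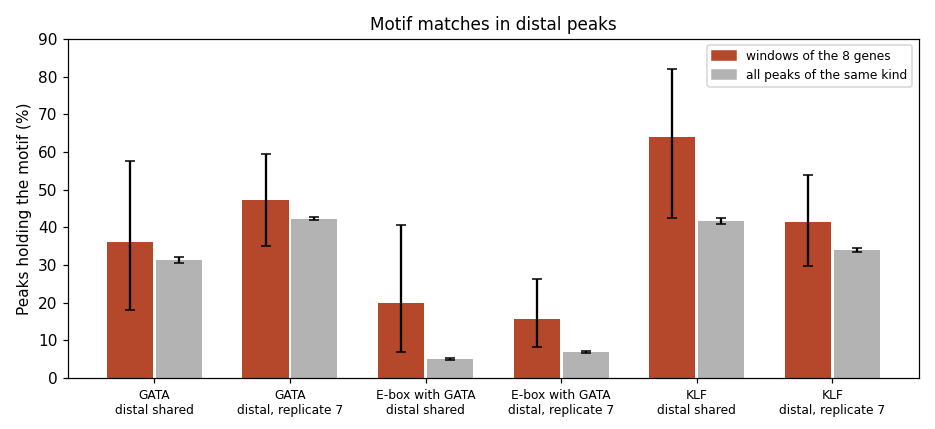
Percentage of distal peaks that hold a motif (vertical axis, in percent), for the windows of the 8 genes (red) and all peaks of the same kind (grey), with exact 95% binomial intervals as bars. The E-box with GATA was held by 15.7% of distal peaks of technical replicate 7 in the windows, against 6.93% of all, and the intervals for the plain GATA motif overlap the grey bars.

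The plain GATA motif, searched on both strands as GATAA or GATAG after an A or a T, was in 19 of the 65 shared peaks of the windows (29.2%; 18.6 to 41.8), against 21.1% of all shared peaks. Among distal shared peaks the counts were 9 of 25 (36%; 18 to 57.5), against 31.2%. Among distal peaks of technical replicate 7 they were 33 of 70 (47.1%; 35.1 to 59.4), against 42.3%. Inside the 8 gene bodies 22 of 34 distal peaks of technical replicate 7 held it (64.7%; 46.5 to 80.3), against 43.1% of its distal peaks inside any gene. The motif of the KLF family, CCNCNCCC, was in 45 of the 65 shared peaks (69.2%; 56.6 to 80.1), against 57.2% of all. A GATA match can overlap a composite match, since the composite ends in GATAA. A match describes letters in an open region and says nothing of what was bound there.

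Sptb encodes beta-spectrin, the long filament that forms the lattice with alpha-spectrin. Its peak at the start reached a density of 2.22 in technical replicate 7 and 2.32 in technical replicate 1, rank percentiles 88.4 and 78.0. The annotation has 2 starts that lie 0.524 kb apart. This peak (chr12:76709993-76710326) covers the downstream start, and a second peak of technical replicate 7, of density 1.14, covers the upstream one. Both overlap the same peak of technical replicate 1, so the starts were told apart in technical replicate 7 only. Beyond the starts, the window was sparse in shared peaks, with 1 distal shared peak, in an intron, and 1 shared region at the start of the neighbour Plekhg3 and Mir5135. Technical replicate 7 had 4 further distal peaks of density above 1 inside the gene, with densities of 1.09, 1.4, 1.62 and 1.65. The strongest pair, 39.3 and 36 kb downstream of the starts, are the 2 intronic peaks with the composite shown above. In technical replicate 1 both were missing from the shorter list and present in the longer one, at densities of 0.818 and 0.899. Lists of its earlier processing also held both, the stricter of them the 36 kb peak alone. Of distal peaks of like rank in technical replicate 7, within 2.5 percentile points, 88.5% and 88.6% had a peak in the shorter list of technical replicate 1.

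Ank1 encodes ankyrin-1, the adaptor between spectrin and band 3, and is also known for short muscle forms that begin near its 3′ end. The annotation has 4 groups of starts, where starts within 500 bp of each other are joined. Of these, 3 had a shared peak. The first had densities of 0.493 in technical replicate 7 and 1.22 in technical replicate 1. The start 60.3 kb downstream had 1.61 and 1.45, and the one at 83.4 kb had 0.789 and 0.889. The second start was the strongest of the 3 in both libraries, whereas the other 2 stood in different order in the libraries. The last start, at 164.2 kb, had no peak in either library, nor in the longer lists or those of the earlier processing. The stretch around the first start had a GC content of 76.7%, the highest among the 20 start groups of the 8 genes.

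Inside Ank1, the strongest distal shared site lay 7.00 kb upstream of the second start, with densities of 1.59 and 2.12, and neighbouring peaks of technical replicate 7 continued it to position 23028834 of chromosome 8. A peak 4.10 kb upstream of the third start, which holds the composite, had a density of 1.30 in technical replicate 7 and 0.646 in the longer list of technical replicate 1. The tallest peak of technical replicate 7 in the Ank1 window, at chr8:23095534-23095735, reached 2.03 and held 5 footprints of its shorter list. It was absent from both lists of technical replicate 1 and from those of the earlier processing, although 94.7% of distal peaks of like rank were shared. The comprehensive annotation places a start within 500 bp of it. The microRNA pair Mir486 and Mir3107, in the last part of Ank1, had a start peak of density 0.569 in technical replicate 7, and for technical replicate 1 in the longer list of the earlier processing alone.

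**Figure D2:**
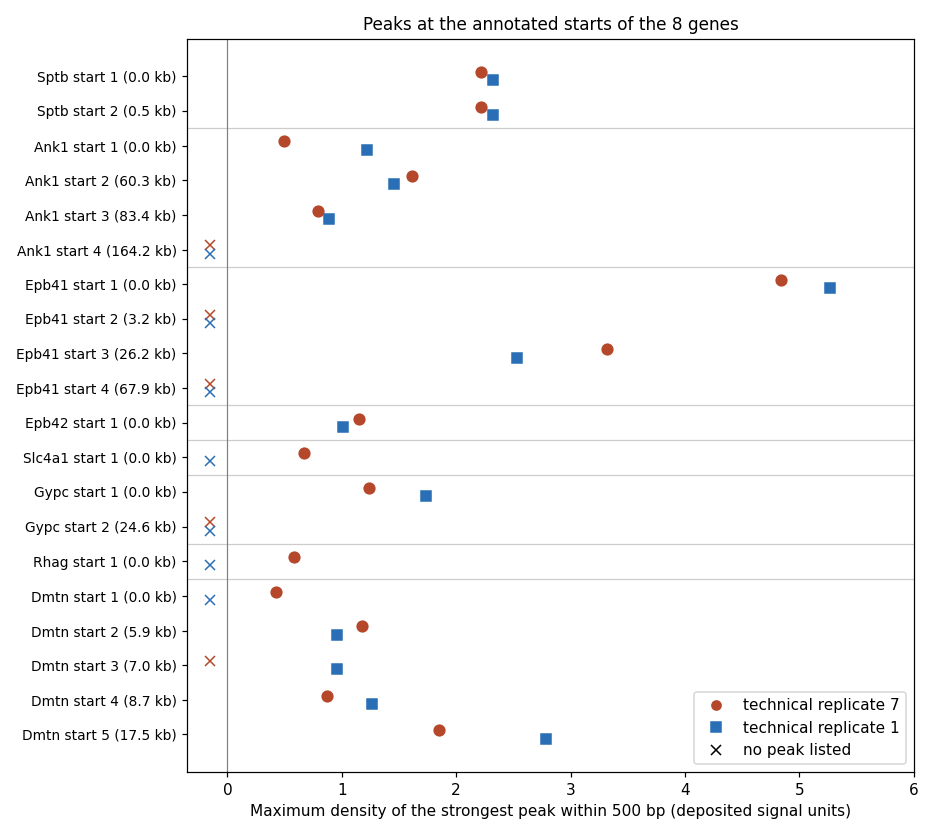
Maximum density of the strongest peak within 500 bp of each group of annotated starts (horizontal axis, deposited signal units), for technical replicate 7 (circles) and technical replicate 1 (squares), with crosses where no peak was listed. Rows give the gene, the start group and its distance from the most upstream start in kb. Epb41 starts 1 and 3 stand above all others in technical replicate 7, and Ank1 start 4, Epb41 starts 2 and 4 and Gypc start 2 have no peak in either library.

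Epb41 encodes protein 4.1, which strengthens the spectrin and actin junction, and is known to be transcribed from several first exons. Of its 4 starts, 2 were open in both libraries and 2 in neither. The first start had densities of 4.84 in technical replicate 7 and 5.27 in technical replicate 1, rank percentiles 97.6 and 99.0. This peak also lies over Gm10300, a gene model annotated across the first start. The third start, 26.2 kb downstream, had 3.32 and 2.54. The second and the fourth starts, at 3.2 and 67.9 kb, had no peak in any list. The 2 open starts lie in CpG-rich sequence, with an observed over expected CpG ratio of 0.613 and 0.850 in the 1000 bp around the start, and the 2 others do not, with 0.142 and 0.151.

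Sequence just upstream of the second and the third starts is shown to set a closed start beside an open one. It comes from RefSeq's promoter table for GRCm38.p6, cut where an annotated exon begins, on the minus strand and read 5′ to 3′, with KLF motifs in capitals.
Epb41 start 2 (closed), chr4:132072098-132072347: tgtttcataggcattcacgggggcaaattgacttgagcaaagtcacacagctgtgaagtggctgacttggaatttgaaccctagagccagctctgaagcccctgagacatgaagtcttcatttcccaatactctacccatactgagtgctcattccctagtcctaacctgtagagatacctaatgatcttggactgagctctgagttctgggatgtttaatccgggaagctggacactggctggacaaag
Epb41 start 3 (open), chr4:132049092-132049328: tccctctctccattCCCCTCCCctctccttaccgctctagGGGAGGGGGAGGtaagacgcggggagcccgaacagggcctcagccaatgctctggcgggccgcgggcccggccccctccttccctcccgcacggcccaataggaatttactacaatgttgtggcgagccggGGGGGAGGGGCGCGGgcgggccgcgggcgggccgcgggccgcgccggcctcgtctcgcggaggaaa
The open stretch holds 6 KLF matches, some of which overlap, and the closed one holds none. Neither holds a GATA motif. Of the 32851 stretches of 250 upstream bases in that table, 45.9% hold a KLF match and 26.5% a GATA match.

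Upstream of Epb41 lay the tallest of the 13 composite peaks. This peak, 1.60 kb upstream of the first start and in an exon of Gm10300, had densities of 3.32 and 2.48, and held both the composite and the only match to the NFE2 motif in the 138 peaks. That motif was in 0.804% of all distal peaks of technical replicate 7. A second site 2.29 kb upstream had densities of 1.68 and 2.02 and held 11 KLF matches beside its composite. In the body of the gene, 1 of 5 distal peaks was shared, 30.01 kb downstream of its nearest start. The intronic peak with the composite shown above had a density of 1.20 in technical replicate 7 and no peak in any list of technical replicate 1.

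Dmtn encodes dematin, an actin-binding protein of the junctions. Of its 5 groups of starts, 3 had a shared peak. The fifth, 17.5 kb downstream of the first, was the strongest in both libraries, with densities of 1.85 in technical replicate 7 and 2.79 in technical replicate 1. The fourth had 0.869 and 1.26, and the second had 1.18 and 0.960. At the second and the fifth starts these peaks lay downstream, within 500 bp, and did not cover the start itself. The peak of technical replicate 1 counted for the second start lies between it and the third start, and reaches within 500 bp of both. The peak of technical replicate 7 at this site reaches within 500 bp of the second start only. The third start thus had no peak in the shorter list of technical replicate 7 and was not counted as having a shared peak. The most upstream start had 0.425 in technical replicate 7, the lowest value of the 4 starts with a peak there, and 0.788 in the longer list of technical replicate 1. The intronic peak with the composite had densities of 0.785 and 1.22 and held 2 GATA motifs.

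**Figure D3:**
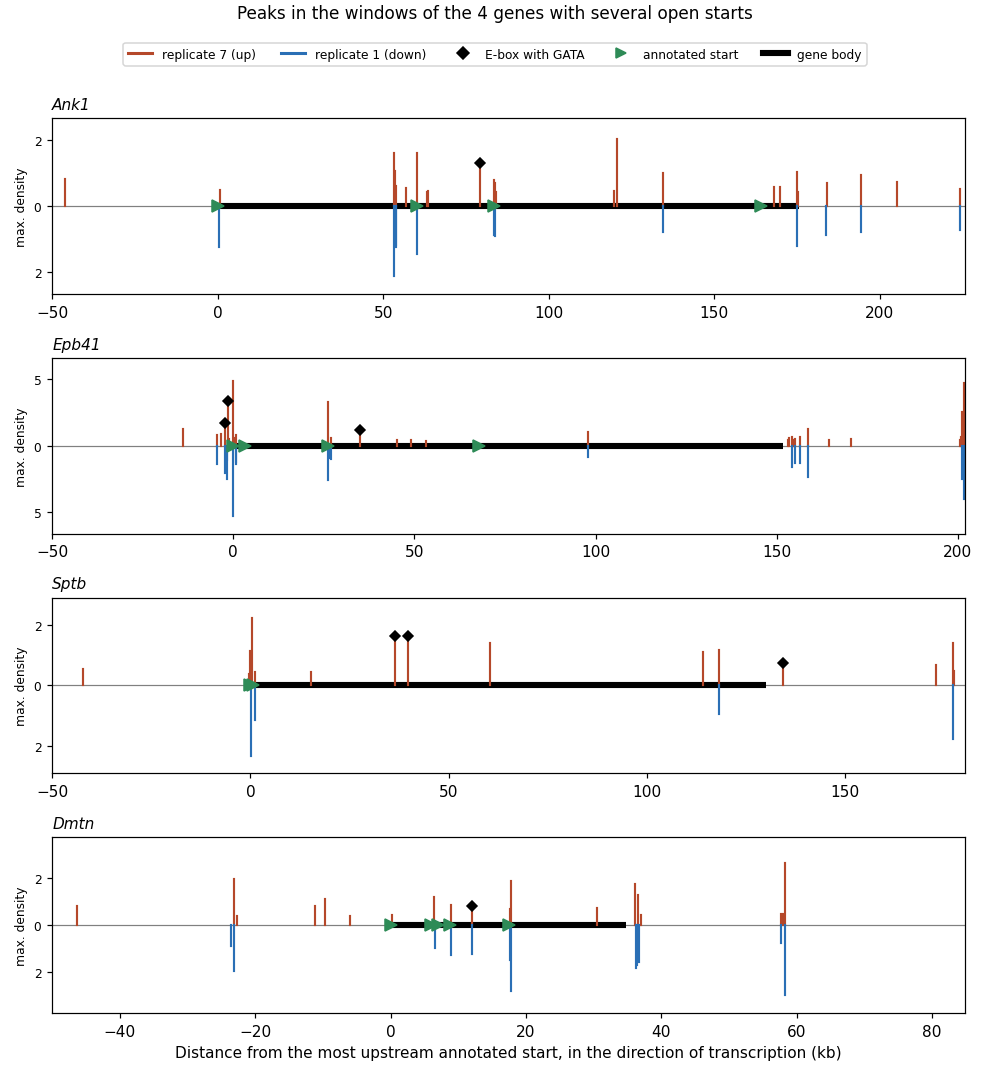
Peaks in the windows of Ank1, Epb41, Sptb and Dmtn, against the distance from the most upstream annotated start in kb. Vertical lines give the maximum density in technical replicate 7 (upward) and technical replicate 1 (downward), green arrowheads mark start groups, black bars the gene body and diamonds peaks with the E-box and GATA composite. In Epb41 tall lines stand at the first and the third starts and none at the others, and in Sptb the 2 diamonds inside the gene have no line below.

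Over the 8 genes, 12 of 20 start groups had a shared peak within 500 bp, which did not always cover the start itself. Over all protein-coding genes, 13868 start groups had one and 14703 did not. Both Sptb groups were counted with the same strongest peak. Among protein-coding genes with 2 or more start groups, 33.7% of groups had one, 45.3% of the most upstream groups and 24.3% of the later ones. In the 5 genes with several groups, 11 of 17 had one: 4 of 5 most upstream groups and 7 of 12 later ones. Dmtn was the gene whose most upstream start had none while later starts did. The 12 groups with a shared peak had a median CpG ratio of 0.634, against 0.165 in the 8 without. Over all protein-coding genes the medians were 0.739 and 0.203. The 3 lowest ratios among the groups with a shared peak were 0.156 at Epb42, 0.207 at the second start of Dmtn and 0.407 at the fourth. The peaks counted for that second start lay beside it and not over it.

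Slc4a1 encodes band 3, the chloride and bicarbonate exchanger and the main anchor of ankyrin in the membrane. Its start had a density of 0.669 in technical replicate 7, rank percentile 53.6, and no peak in any list of technical replicate 1. Of start peaks of like rank in technical replicate 7, 64.1% had a peak in technical replicate 1. The only other peak in the gene lay in an intron, 1.48 kb downstream, and was shared with densities of 1.35 and 1.16. It is taller than the start peak in technical replicate 7. The comprehensive annotation begins a non-coding Slc4a1 transcript within this peak. The whole peak is shown because it is the only open site inside the gene found in both libraries; its GATA motifs are in capitals, on the plus strand.
Slc4a1 intron, chr11:102363673-102363931: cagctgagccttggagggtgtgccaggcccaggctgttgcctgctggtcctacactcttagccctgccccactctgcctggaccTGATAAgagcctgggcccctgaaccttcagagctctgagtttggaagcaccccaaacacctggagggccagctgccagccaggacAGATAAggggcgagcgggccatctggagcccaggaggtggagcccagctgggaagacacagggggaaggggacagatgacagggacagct

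The Slc4a1 window was the densest of the 8, with 17 shared regions or 14.5 per 100 kb, against a median of 3.91 over the 8 windows and 2.66 over all protein-coding genes. Most of these lay at the starts of neighbours, 7 at Ubtf, 2 at Slc25a39 and 1 at Rundc3a. The 7 at Ubtf all fell in 1 stretch listed as a single hotspot, 4910 bp long in technical replicate 7 and 4634 bp in technical replicate 1. Of the 7 distal shared regions, 1 was the intronic site above. The nearest upstream of the gene lay 10.1 kb away, with densities of 1.53 and 1.30, and 10.7 kb away, within the non-coding gene Bloodlinc, with 1.02 and 1.47. The tallest in technical replicate 7, 43.3 kb upstream, reached 6.10 there and 3.99 in technical replicate 1. In technical replicate 1 the tallest lay in an intron of Ubtf, with 4.70 in technical replicate 7 and 5.48 in technical replicate 1.

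Epb42 encodes protein 4.2, which binds band 3 and ankyrin. It had 1 start group, covered by 2 adjoining peaks of technical replicate 7 with densities of 1.15 and 0.881, and by 2 adjoining peaks of technical replicate 1 with 0.838 and 1.01. With a mean rank percentile of 54.5 its promoter was the weakest of the 6 shared ones. The composite lies in the upstream peak of each library, the one of 1.15 and the one of 0.838, and 1.98% of the upstream stretches in RefSeq's table hold one. The shorter lists had no peak inside the gene away from its start. The 3 other starts with shared peaks in the window were those of Ubr1 and Ccndbp1 and the common start of Tmem62 and Gm44325.

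Rhag encodes the Rh-associated glycoprotein, a membrane channel of the Rh complex that contacts the skeleton through ankyrin and protein 4.2. Its start had a density of 0.585 in technical replicate 7 and no peak in any list of technical replicate 1, whereas 57.2% of start peaks of like rank were shared. The start peak holds a composite that spans the start itself. The tallest peak of the window stood 4.28 kb upstream, in an intron of Crisp2, with a density of 1.71 in technical replicate 7 and a composite. For technical replicate 1 it was in neither the shorter nor the longer list but in the longer list of the earlier processing, at a signal of 0.556, while 90.3% of distal peaks of like rank were shared. Rhag was the only one of the 8 genes with no distal shared peak, and its 2 shared regions both lay at the start of 9130008F23Rik. The CpG ratio at its start was 0.0363 and the GC content 33.6%, the lowest of the 20 start groups on both counts.

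**Figure D4:**
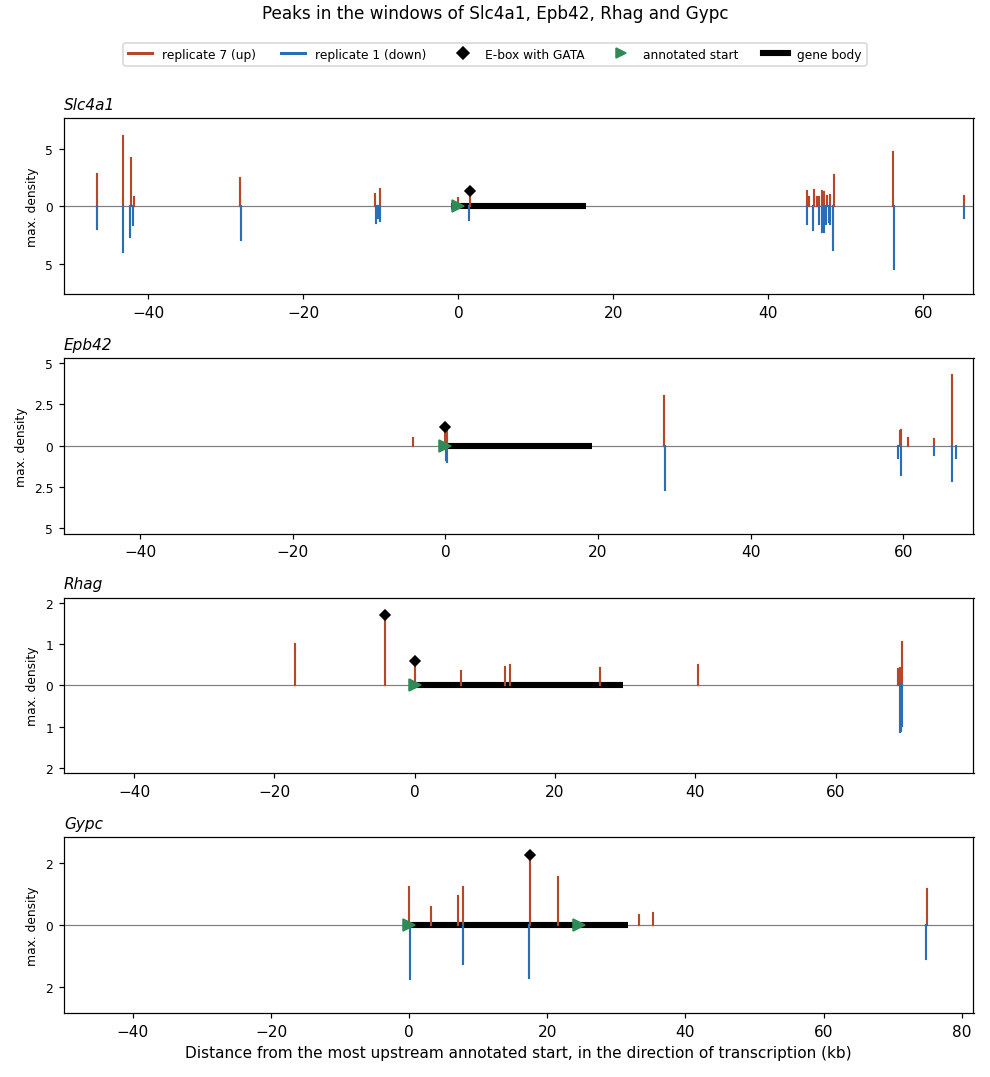
Peaks in the windows of Slc4a1, Epb42, Rhag and Gypc, against the distance from the most upstream annotated start in kb, drawn as in the map of the genes with several starts. In Rhag the diamonds at the start and upstream have no line below, while in Gypc the line at the diamond, 2.27 in technical replicate 7 and 1.73 in technical replicate 1, is the tallest of the upward lines.

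Gypc encodes glycophorin C, the membrane partner of protein 4.1. The most upstream start had densities of 1.24 in technical replicate 7 and 1.74 in technical replicate 1. The other start, 24.6 kb downstream, had no peak in any list. The tallest site of technical replicate 7 lay in an intron between them, at chr18:32542399-32542735, with a density of 2.27. In technical replicate 1 it had 1.73, just under the 1.74 of the start. It held 5 GATA motifs, the most of any of the 138 peaks, and a composite under a footprint of the shorter list of technical replicate 7. A second intronic site had 1.22 and 1.26. Another, of density 1.55 in technical replicate 7, was missing from the shorter list of technical replicate 1 and present in its longer list, at 0.808.

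Distal shared peaks were found in 7 of the 8 windows, against 59.9% of protein-coding genes. There were 25 of them, 8 inside the genes. Of the 138 peaks of technical replicate 7 in the windows 80 were shared (58.0%; 49.3 to 66.3), against 46.2% of all its peaks. The share differed with place. At the genes' own starts 20 of 24 peaks were shared, against 72.6% of all peaks at a start, and among distal peaks inside the genes 10 of 34, against 29.8% of all distal peaks. Among distal peaks inside the genes that ranked in the strongest 30% of technical replicate 7, 8 of 16 were shared (50%; 24.7 to 75.3), against 78.5% of such peaks inside any gene. With the longer list of technical replicate 1 the count was 14 of 16 (87.5%), against 86.2% inside any gene. What sets the libraries apart at these sites was not tested. The densities of technical replicate 7 came in steps 2.52 times finer than those of technical replicate 1.

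Other genes of the red cell membrane and its skeleton were counted in the same way. Of 25 such genes, 23 had a shared promoter peak (92.0%; exact 95% interval 74.0 to 99.0), beside 6 of the 8 described here (75%; 34.9 to 96.8). The 2 without one were Aqp1, a water channel, and Kel, a blood group protein; both had a start peak in technical replicate 7. The strongest promoters belonged to Add3, gamma-adducin (mean rank percentile 99.8), Tpm1, a tropomyosin (99.6), Stom, stomatin (98.9), and Slc2a1, the glucose transporter GLUT1 (98.3). A composite in a peak of technical replicate 7 was found in the windows of 19 of the 25, at 10.05 peaks per megabase.

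Of 21 paralogs of the 8 genes, 15 had a shared promoter peak (71.4%; 47.8 to 88.7). The strongest were Sptbn4 (98.9), a beta-spectrin whose peak also lies at the start of Blvrb, Epb41l2 (90.9), Slc4a2 (88.9), an anion exchanger, and Epb41l5 (87.2). Rhcg, Tgm3 and Vil1 had no start peak in either library. Composite peaks lay in 8 of the 21 windows, at 3.02 per megabase. Among genes with a shared promoter peak, the median rank percentile was 77.7 for 6 of the 8 genes, 80.0 for the other membrane genes and 81.0 for the paralogs. The lists were chosen with earlier results of these data known, and the counts are given as a description.

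**Figure D5:**
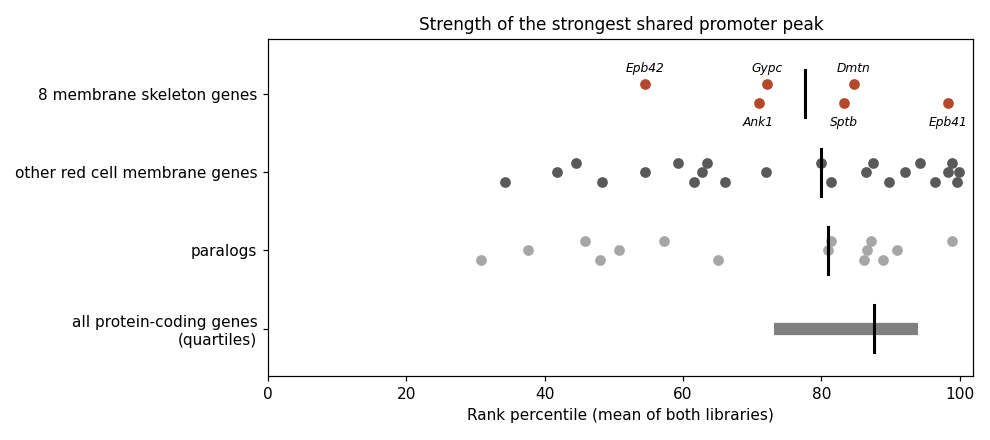
Rank percentile of the strongest shared promoter peak, averaged over both libraries (horizontal axis), for the 6 of the 8 genes that have one (red, named), the other red cell membrane genes and the paralogs, with vertical lines at the medians and, for all protein-coding genes, the quartiles as a bar. The median of these 6 genes, 77.7, lies below the 87.6 of all protein-coding genes with a shared promoter peak. Epb41 at 98.3 stands at the upper end.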

How the data were processed

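Per the labels, both libraries come from 1 biological replicate and coordinates are on mm10. Which aligner, peak caller and footprint caller produced the files is not given in the sources used here. Peaks were called by the authors per library, and the deposited peak lists give a signal, the maximum density of cuts, which fell on whole multiples of 1 step (0.00401 in technical replicate 7, 0.0101 in technical replicate 1; tolerance 0.02 steps). The deposited hotspots give a −log10 false discovery rate. The deposited footprints of technical replicate 1 carry a constant p-value or FDR of 0.01, and the deposited hotspots of its earlier processing a score; neither number is reported here.

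The shorter, nested peak list of each library was used throughout. Promoter peaks lay within 1 kb of a GENCODE vM21 basic start; start groups joined starts within 500 bp and were open when a peak overlapped 500 bp on either side. Motifs were scanned over whole peaks on both strands of RefSeq's GRCm38. Footprint lists were intersected with matches, at 1 bp. Steps were tested on simulated peaks. Python 3.11.15, numpy 2.4.6, scipy 1.17.1 and pysam 0.24.0 were used. Shares have exact Clopper-Pearson 95% intervals, which cover counting error only. The 8 genes and the gene lists were chosen with earlier results of these data known. All 8 genes are described. Of each other list the 4 strongest promoters are named and, where at most 4 lack one, the genes without a start peak. Some neighbours with a shared peak at their start are named. Those not described above are Gm15816 in the Ank1 window and Nudt18 and Fam160b2 in the Dmtn window. In the Epb41 window they are Srsf4, Tmem200b, Gm12992 and Gm13063. Other sites were picked after their values were seen. Alternatives were longer lists, single libraries, wider overlap, stronger peaks, other distances, coding transcripts and other motifs.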

Additional observations from a re-analysis of the deposited data

How the results depend on the processing

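The 6 members with a shared promoter peak, the 12 open start groups and the 7 members with a distal shared peak stayed within 1.5 times of these counts under every alternative run. With 1 library left out they came to 6 to 8, 13 to 15 and 7 to 8. With the comprehensive annotation, an alternative chosen after seeing the data, there were 7 members and 14 start groups. The count of shared peaks in the windows was 65 and depended on the definition: it was 42 in the stronger 50% of peaks, 38 with a flank of 20 kb, 23 in the gene bodies alone, and 80 to 138 with 1 library left out. Shared peaks with a GATA motif numbered 19; there were 11 in the stronger 50% of peaks, 9 in the gene bodies, 12 with AGATAA or TGATAA only, and 25 to 51 with 1 library left out. Fewer peaks or bases entered in the lower counts, except with AGATAA or TGATAA only, where the motif was narrowed over the same 65 peaks. The list of technical replicate 1 is the shorter of both libraries, so a peak missing from it is not shown to be closed. No paired analysis was possible because there is 1 group.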
